A study of Mus musculus with 2 samples.

Results

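Keratins are the intermediate filament proteins of epithelial cells, and 10 keratin genes that mark the layers of the mammary epithelium were compared between the day of weaning and the next day. They were taken by gene symbol from the array's platform annotation. Krt7, Krt8, Krt18 and Krt19 are keratins of simple epithelium, such as the luminal cells that secrete milk, and Krt80 was placed with them. Krt5, Krt14, Krt15 and Krt17 are keratins of basal epithelium. Krt10, a keratin of the suprabasal layers of epidermis, was kept apart from the other basal keratins. The 10 genes had 15 of the 45101 probe sets and were 10 of 18193 named genes. One further probe set names both Krt17 and Krt14, had signals of 74.0 and 48.3, and was left out.

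The samples were mammary glands of CD1 mice, an outbred strain for which the labels give no genetic change, bought at 6 weeks of age and mated. Litters were set to 6 pups, and pups were removed at day 10 of lactation, which is day 0 of involution. In the day 0 group glands were taken on that day, and in the day 1 group 1 day later, with no other treatment in either group. For each day the total RNA of 5 mice was combined into 1 pool and hybridised to 1 array, so the spread between mice is not seen, and every difference here is between 2 arrays with no replicate check.

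Keratins form filaments only as pairs of an acidic type I and a basic type II protein. In simple epithelium Krt8 and Krt7 are type II and Krt18 and Krt19 are type I, and in basal cells the type II keratin Krt5 pairs with the type I keratin Krt14. The mammary duct and alveolus have an inner luminal layer with simple keratins and an outer contractile myoepithelial layer with Krt5 and Krt14. Involution, the regression of the gland after weaning, begins with milk stasis and loss of alveolar cells.

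Values are Microarray Suite 5 (MAS 5) signals, a brightness per probe set on a linear scale. Signals below a floor of 77.7, the median over both arrays without controls, were set to it, and ratios are log2 of day 1 over day 0. A gene counted as measured when at least 1 array exceeded the floor. All 10 keratins passed this filter, and 13239 of the 18193 genes did. A ratio with 1 array at the floor is a bound. Where a gene had several probe sets, the brightest was used. Over all measured genes the median log2 ratio was -0.12. On day 1, 10.4% of measured genes were higher by 2-fold or more and 13.3% were lower by 2-fold or more. Hybridisation controls had a median log2 ratio of -1.16 over 15 probe sets, and scaling on them raised the median ratio of all genes by 1.09. Probe sets of 1 gene had ratios with a pooled SD of 0.56 log2 over 3943 genes, which is a spread between probe sets and not between animals.

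The simple keratins were much brighter on day 1. Among the basal keratins, Krt5, Krt17 and the brightest Krt14 probe set had ratios under 2-fold as deposited. The other Krt14 probe sets disagreed, with a log2 ratio of 0.47 and a bound of -1.73. Krt15 was lower, from 155.2 to a signal below the floor. All 5 genes of the group of simple keratins and Krt80 were at least 2-fold higher, against 10.4% of all measured genes, and none was lower. Of the 4 basal keratins, 0 were at least 2-fold higher, and Krt15 was at least 2-fold lower with a lower floor or none. The bulk tissue cannot tell more RNA per cell from a larger share of cells of a type.

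Krt8, the main type II keratin of luminal cells, had signals of 3178.5 on day 0 and 23938.2 on day 1 at its brightest probe set. That is 7.53-fold, or 2.91 log2. Its other probe sets gave 2418.8 and 15880.2 (2.71 log2) and 2595.0 and 20576.1 (2.99 log2). The 3 probe sets thus lay within 0.27 log2 of each other, with an SD of 0.14. The brightest Krt8 signal was 59.7% of the highest on the day 1 array, where brightness may not follow the amount of RNA, but the probe set at 39.6% of the highest had a similar ratio.

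Krt18, the type I partner of Krt8, had signals of 2945.9 and 18594.2, which is 6.31-fold higher on day 1. Its log2 ratio of 2.66 lay 0.25 below that of Krt8, less than the pooled spread between probe sets of 1 gene. The pair therefore moved by a similar factor on these arrays. Krt19, a type I keratin that lacks most of the tail domain, had signals of 692.2 and 5228.8, or 7.55-fold (2.92 log2).

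Krt7, a type II keratin of ducts and glands, had the largest ratio of the 10 genes. Its signal was 144.8 on day 0, under 2 times the floor, and 2575.3 on day 1, which is 17.8-fold higher. The log2 ratio of 4.15 was 1.24 above that of Krt8, and it became 3.36 when the floor was raised to the 75th percentile of all signals. Krt7 ranked 15 from the top among the 13239 measured genes, Krt19 ranked 68, Krt8 69 and Krt18 102. The 4 simple keratins thus lay within the highest 1% of genes, as 0.76% of genes were above Krt18.

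Krt80, a type II keratin found in many epithelia as cells differentiate, was apart from these 4. Its signals were 88.5 and 190.0, both close to the floor, for a ratio of 2.15-fold (1.10 log2) at rank 1158. With no floor and a pseudocount of 16 it was 0.98 log2, under 2-fold. With the floor at the 75th percentile it was not measured.

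**Figure D1:**
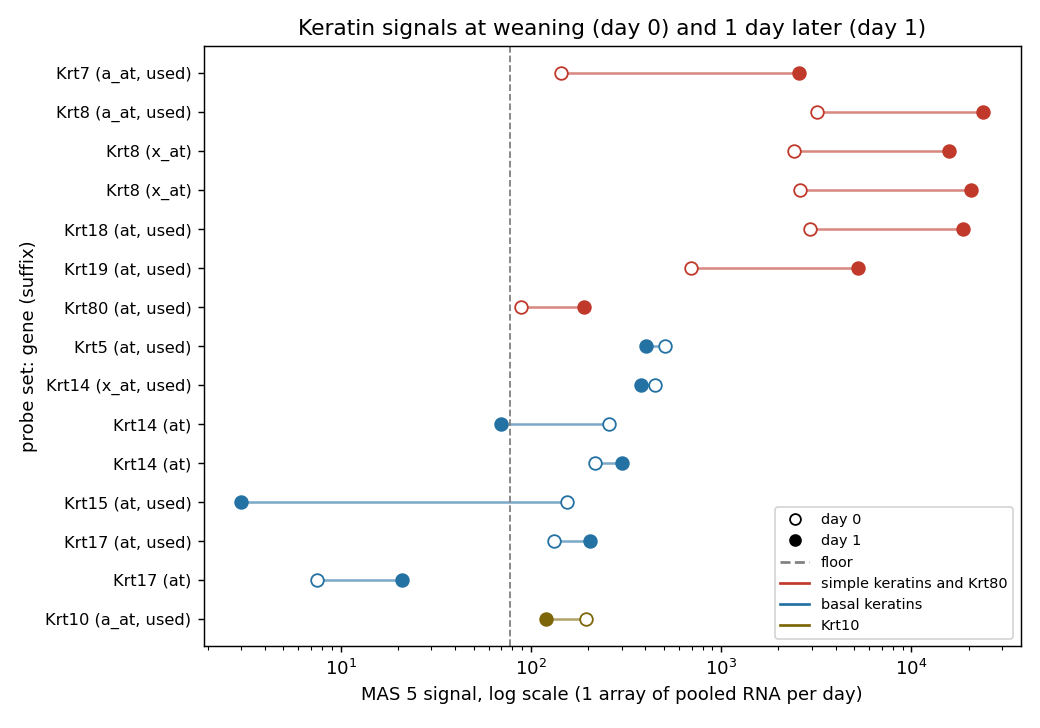
Signals of the 15 keratin probe sets on a log axis, with open circles for day 0, filled circles for day 1 and a dashed line at the floor of 77.7. The suffix after each gene is that of the probe set, and those marked as used give the gene's ratio. The 7 probe sets of the simple keratins and Krt80 lie to the right on day 1, those of Krt8 up to 23938.2, while Krt5 and Krt14 (brightest probe set) lie a little to the left.

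Promoters were found for the simple keratins Krt7, Krt8 and Krt18 but not for Krt19. These promoters are shown with those of the basal pair Krt5 and Krt14, so that the letters before each start can be compared. They are the 250 bases before the RefSeq gene start on GRCm38.p6, written 5′ to 3′ on the gene's strand, and 6 of the 10 members matched the table of promoters. Capitals mark matches, on either strand, to a TATA box (TATAAA) or a GC box (GGGCGG).
Krt7 (chr15:101412153-101412402, plus strand): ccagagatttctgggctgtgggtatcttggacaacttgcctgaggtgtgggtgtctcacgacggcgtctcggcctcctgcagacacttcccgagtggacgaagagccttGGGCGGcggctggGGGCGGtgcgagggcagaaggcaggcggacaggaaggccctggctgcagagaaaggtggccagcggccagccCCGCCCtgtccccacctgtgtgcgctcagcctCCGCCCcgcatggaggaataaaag
Krt8 (chr15:102004343-102004592, minus strand): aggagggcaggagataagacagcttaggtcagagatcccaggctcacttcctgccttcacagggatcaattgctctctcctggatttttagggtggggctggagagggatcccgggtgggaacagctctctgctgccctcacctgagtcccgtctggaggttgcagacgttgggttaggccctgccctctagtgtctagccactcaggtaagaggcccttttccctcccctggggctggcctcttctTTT
Krt18 (chr15:102027966-102028215, plus strand): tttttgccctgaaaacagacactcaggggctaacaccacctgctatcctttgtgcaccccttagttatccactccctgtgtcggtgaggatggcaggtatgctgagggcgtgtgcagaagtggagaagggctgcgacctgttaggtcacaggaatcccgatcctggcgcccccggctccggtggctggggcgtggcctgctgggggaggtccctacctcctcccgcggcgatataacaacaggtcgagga
Krt5 (chr15:101712906-101713155, minus strand): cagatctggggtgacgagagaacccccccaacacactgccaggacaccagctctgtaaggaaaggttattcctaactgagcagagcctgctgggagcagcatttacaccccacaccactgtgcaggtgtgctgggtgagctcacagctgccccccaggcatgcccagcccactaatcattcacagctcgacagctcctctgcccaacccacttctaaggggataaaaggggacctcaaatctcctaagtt
Krt14 (chr11:100206031-100206280, minus strand): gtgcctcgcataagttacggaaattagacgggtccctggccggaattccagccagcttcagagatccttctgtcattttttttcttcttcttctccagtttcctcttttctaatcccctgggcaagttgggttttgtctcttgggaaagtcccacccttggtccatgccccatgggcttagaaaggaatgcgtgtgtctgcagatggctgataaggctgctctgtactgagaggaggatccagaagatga

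The search covered 300 bases, from 250 before the start to 50 from the start on, and also included an AP-1 element (TGANTCA), a STAT element (TTCNNNGAA) and a Grainyhead element (AACCNGTT). Krt7 held 4 GC boxes, the first bases of which lay 141, 128, 56 and 24 bases before the start, and no other of the 6 promoters held one. A GC box was found in 35.7% of 32841 promoters. Krt8 held 2 overlapping TATA boxes, 1 on each strand, that begin 3 and 1 bases before the annotated start and run past it, so only their first bases are in the printed stretch. The sixth promoter, that of Krt10, held a TATA box that begins 26 bases before the start. A TATA box was found in 13.6% of promoters. None of the 6 held the letters of the AP-1, STAT or Grainyhead element, which 7.81%, 8.3% and 2.09% of all promoters held. The G and C content was 66.0% for Krt7, 60.4% for Krt18, 58.0% for Krt8, 56.0% for Krt5 and 49.6% for Krt14, and the median of all promoters was 52.4%. The letters shared by Krt7, Krt8 and Krt18 in these windows thus included none of the 5 motifs in all 3.

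Krt5, the type II keratin of basal cells, had signals of 504.7 and 401.4. Its log2 ratio was -0.33, close to the median of all genes, and 61.4% of measured genes were above it. The brightest Krt14 probe set had signals of 451.7 and 381.0, a log2 ratio of -0.25. The ratios of this basal pair differed by 0.08 log2. Both signs depended on the scaling. Krt5 was above 0 in 2 of 6 scalings (up to 0.83) and Krt14 in 3 of 6 (up to 0.92).

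The 3 probe sets of Krt14 did not agree. The brightest has the suffix _x_at, given to probe sets whose probes may also match other transcripts, and basal type I keratins are close in sequence. A second had signals of 218.3 and 302.5, a log2 ratio of 0.47, and the third 258.2 and 69.8, a bound of -1.73. The ratios ranged over 2.20 log2, far more than those of Krt8, so these arrays give no settled direction for Krt14.

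Krt15, a type I keratin of basal and stem-like epithelial cells, had the lowest ratio of the 10 genes. Its signals were 155.2 on day 0 and 3.0 on day 1, and the second is below the floor. Against the floor the ratio is a bound of -1.00 log2, which rounds to 2-fold but falls just short of it. With the floor at the 25th percentile the bound was -2.80, and with a pseudocount of 16 the ratio was -3.17, so Krt15 then counted as at least 2-fold lower. The bound was -0.93 to -0.49 in the 6 scalings, with its sign fixed because day 0 alone was above the floor.

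Krt17, a type I keratin of appendages and of basal cells under stress, was the basal keratin with the highest ratio. Its signals were 133.2 and 205.7, or 1.54-fold (0.63 log2), and its other probe set was below the floor on both arrays, at 7.5 and 21.1. It was above 0 in all 6 scalings and passed 2-fold in 2 of them, median centring (1.28) and hybridisation control scaling (1.79). Krt10 had signals of 194.8 and 120.7, a log2 ratio of -0.69, and was above 0 in 1 of 6 scalings (0.47 with hybridisation control scaling). Its type II partner in epidermis, Krt1, was below the floor on both days, at 5.0 and 49.4.

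Set side by side, the median log2 ratio was 2.91 for the 5 simple keratins and Krt80 and -0.29 for the 4 basal keratins. The difference of 3.20 log2 does not depend on a factor applied to a whole array, and the 6 scalings gave 3.14 to 3.24. Over all 14 alternatives it lay between 2.84 and 3.29. As deposited the ranges of the groups did not overlap, as the lowest simple member (Krt80, 1.10) lay above the highest basal member (Krt17, 0.63). That gap was smaller than the pooled spread between probe sets of 1 gene, and both genes had signals near the floor. With hybridisation control scaling Krt80 was at 1.95 and Krt17 at 1.79. With the floor at the 75th percentile neither was measured. By type, the luminal type II keratin Krt8 lay 3.24 log2 above the basal type II keratin Krt5, and the luminal type I keratin Krt18 lay 2.90 above the brightest probe set of the basal type I keratin Krt14, and 2.19 and at least 4.39 above its other probe sets. The basal median had no stable sign and was above 0 after median centring (0.36), ribosomal protein scaling (0.03), hybridisation control scaling (0.87) and without probe sets shared between transcripts (0.07).

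**Figure D2:**
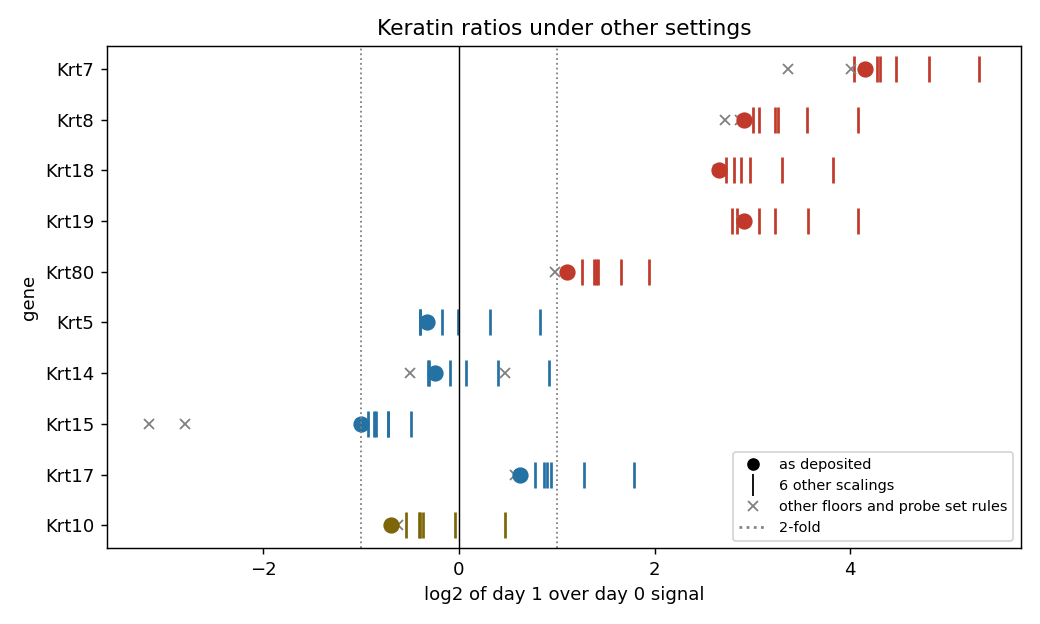
Log2 ratio of each keratin as deposited (circles), under 6 other scalings (bars) and under other floors and probe set rules (crosses), with dotted lines at 2-fold. The 4 simple keratins stay at 2.65 or more in each setting, while Krt5, Krt14 and Krt10 lie on either side of 0.

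Of 38 other keratins on the array, 5 were above the floor on both days, Krt81, Krt78, Krt71, Krt6a and, named after its value was seen, Krt42. All 5 were at least 2-fold lower on day 1, with log2 ratios from -2.31 to -1.25, and among all genes above the floor on both arrays this share was 11.1%. With hybridisation control scaling the ratios of Krt71, Krt6a and Krt42 were -0.41, -0.33 and -0.08, under 2-fold. These genes were also under 2-fold after median centring. Krt42 was read from a probe set with the suffix _x_at, and its other probe set gave -1.43. Of the other keratins, a further 9 were measured through day 0 alone and 1 through day 1 alone. The filter fixes the sign of such bounds, so they are not counted for a direction. On the day 1 array 44.5% of probe sets were above the floor, and 55.4% on day 0, and the part of this difference in the lower keratin signals was not tested.

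Krt81, a keratin of the hair shaft, had signals of 504.2 and 101.6 (-2.31 log2). Krt78 had 391.0 and 86.4 (-2.18), and Krt79 had 271.5 and 51.4 (a bound of -1.80). Krt71, a keratin of the inner root sheath of hair, had 454.1 and 152.2 (-1.58). Krt6a, the keratin of wounded and appendage epithelium and a close relative of Krt5, had 394.3 and 139.8 (-1.50), and Krt32 had 191.8 and 44.8 (a bound of -1.30). The ratios of Krt81, Krt78, Krt71 and Krt6a stayed below 0 in all 6 scalings.

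Gene order sets these values in view. The type I keratins other than Krt18 lie together on chromosome 11, and the type II keratins with Krt18 on chromosome 15, in the GRCm38.p6 gene table. Among the 26 keratin genes of chromosome 15, Krt80 and Krt7 are the first and Krt8 and Krt18 the last, so the 4 higher genes lie at the ends of the row. Between them 5 keratins were above the floor on both arrays, Krt81, Krt6a, Krt5, Krt71 and Krt78, and their ratios were below 0 as deposited, that of Krt5 not in 2 of 6 scalings. A further 5 were measured through day 0 alone, which fixes the sign of their ratios. On chromosome 11 Krt19 stands directly beside Krt15, and their ratios differed by at least 3.92 log2.

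**Figure D3:**
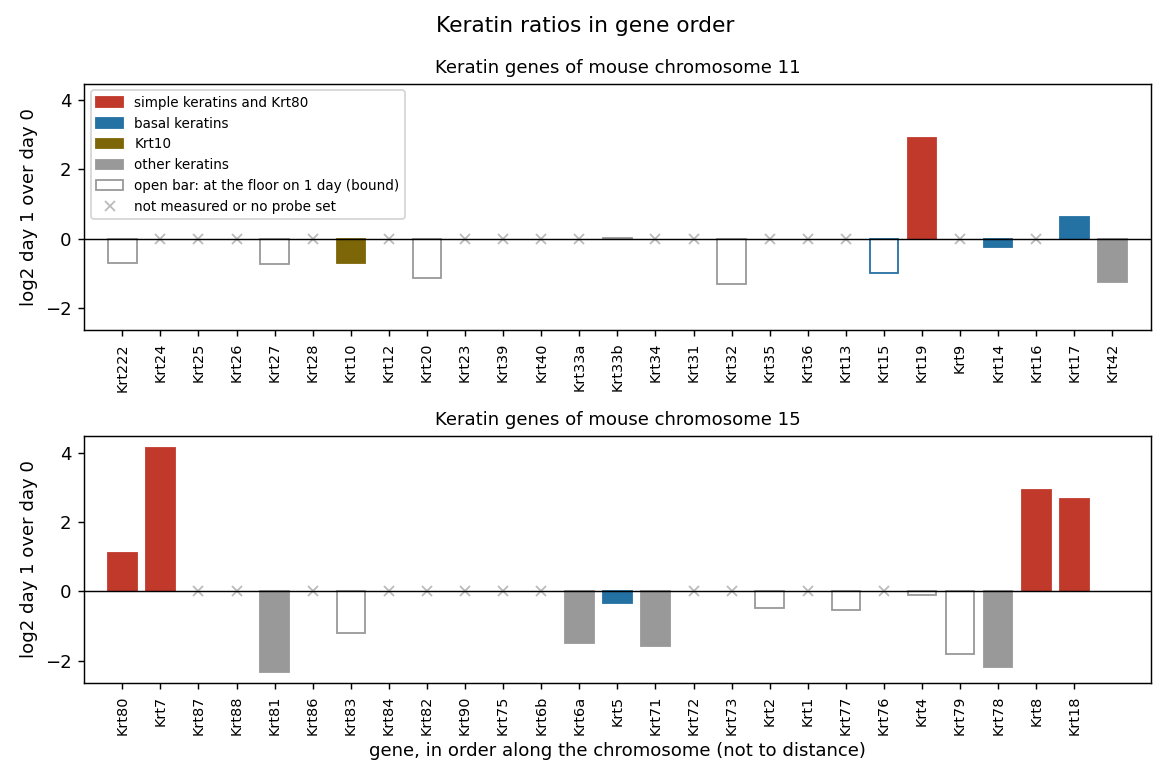
Log2 ratio of every measured keratin in order along chromosomes 11 and 15, without distances. Bars are red for simple keratins and Krt80, blue for basal keratins, brown for Krt10 and grey for the other keratins, open bars are bounds and crosses are keratins without a measured ratio. Red bars stand at both ends of chromosome 15 and at Krt19 on chromosome 11, next to the open bar of Krt15.

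Luminal markers other than keratins were mixed. Of 15 measured, 6 were at least 2-fold higher and 2 lower, beside 10.4% and 13.3% of all genes. The median was -0.03 and was above 0 in all 6 scalings (0.07 to 1.13). Of the 6 higher genes, 2 were measured through day 1 alone, which fixes the sign. They were Kit and, named after its value was seen, Aldh1a3 (at least 1.24, and at least 0.73 at its other measured probe set). The largest ratios were those of the tight junction gene Cldn4 (5.28 log2), the receptor gene Kit (at least 4.29, and at least 1.66 at its other probe set) and Cldn3 (2.89). The 2 lower genes, named after their values were seen, were Esr1, the oestrogen receptor (-1.91), and Elf5, the transcription factor of alveolar cells (-1.08, but 0.09 with hybridisation control scaling). Markers of epithelium in general, also named after their values were seen, did not move alike. The adhesion gene Cdh1 had signals of 641.7 and 4367.8 (2.77 log2), as deposited between the ratios of Krt18 and Krt8, and Epcam had 7265.4 and 8857.3 (0.29).

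Of 14 measured myoepithelial markers other than keratins, 2 were at least 2-fold higher, near the 10.4% of all genes, and 0 lower, with a median of 0.22. The count was 6 after median centring (median 0.87), beside 3631 of all 12945 measured genes. With hybridisation control scaling it was 10 (1.38), beside 6292 of 12929. The markers with the largest ratios were the integrin gene Itgb4 (2.18) and the actin-binding gene Cald1 (1.55, with other measured probe sets from -0.71 to 0.94). Next was Trp63, the basal transcription factor (-0.95, and 0.21 with hybridisation control scaling). Acta2, the smooth muscle actin of myoepithelial cells, had signals of 15475.8 and 16710.1 (0.11).

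Proteins that link keratin filaments or belong to desmosomes had 1 of 12 measured genes at least 2-fold higher, near the 10.4% of all genes, and 0 lower. The log2 ratios ranged from -0.91 to 3.38, with a median of 0.49 that was above 0 in each of the 6 scalings. The count of higher genes was 5 with ribosomal protein scaling, 6 after median centring and 9 with hybridisation control scaling. Of all measured genes, 2281 of 13075, 3631 of 12945 and 6292 of 12929 were higher in these scalings. The higher gene as deposited was Dsp, which encodes desmoplakin, the plaque protein that binds keratins. Its signals were 91.2 and 946.7 (3.38 log2), with 1.79 at its other measured probe set. Perp (1.00) and Pkp3 (0.92), also of the desmosome, were just under 2-fold.

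Skin can be dissected with the gland and expresses Krt5, Krt14, Krt15, Krt17 and Krt10. Of 22 epidermis markers, 12 were measured, 6 through day 0 alone and 1 through day 1 alone, and the filter fixes the sign of such bounds. As deposited 2 of the 12 were higher by at least 2-fold and 5 lower, beside 10.4% and 13.3% of all genes. Among the lower genes, Klk7 and Cdsn were bounds. The median of -0.48 also came from bounds. It was 0.07 with hybridisation control scaling and 1.04 with the floor at the 75th percentile, where 4 were measured. The summed signal of the 22 markers was 2408.9 on day 0 and 8227.3 on day 1, led by Sbsn (4.75 log2) and Dmkn (3.99). Casp14, a protease of the cornified layer, was lower (-2.00, from a probe set with the suffix _x_at). The other Casp14 probe set was below the floor on both days. Of other genes of cornified skin, named after their values were seen, Flg, Ivl and Krt1 were below the floor on both days. Lor was above the floor on both days at 1 probe set, with 340.1 and 136.0 (-1.32), and below it on both at its other probe sets. Cdsn (195.6) and Klk7 (238.7) were above the floor on day 0 only. Of 16 hair follicle markers, 5 were measured, 2 through day 0 alone and 1 through day 1 alone. Of these 5, 0 were higher and 2 lower by at least 2-fold, beside 10.4% and 13.3% of all genes. The 2 lower genes were Krt81 and Krt71, which are also counted among the other keratins above. Only 1 was lower after median centring and 1 with hybridisation control scaling. The summed signals of the list were 1483.3 and 597.3. The part of skin in the ratios of the basal keratins and Krt10 was not tested.

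**Figure D4:**
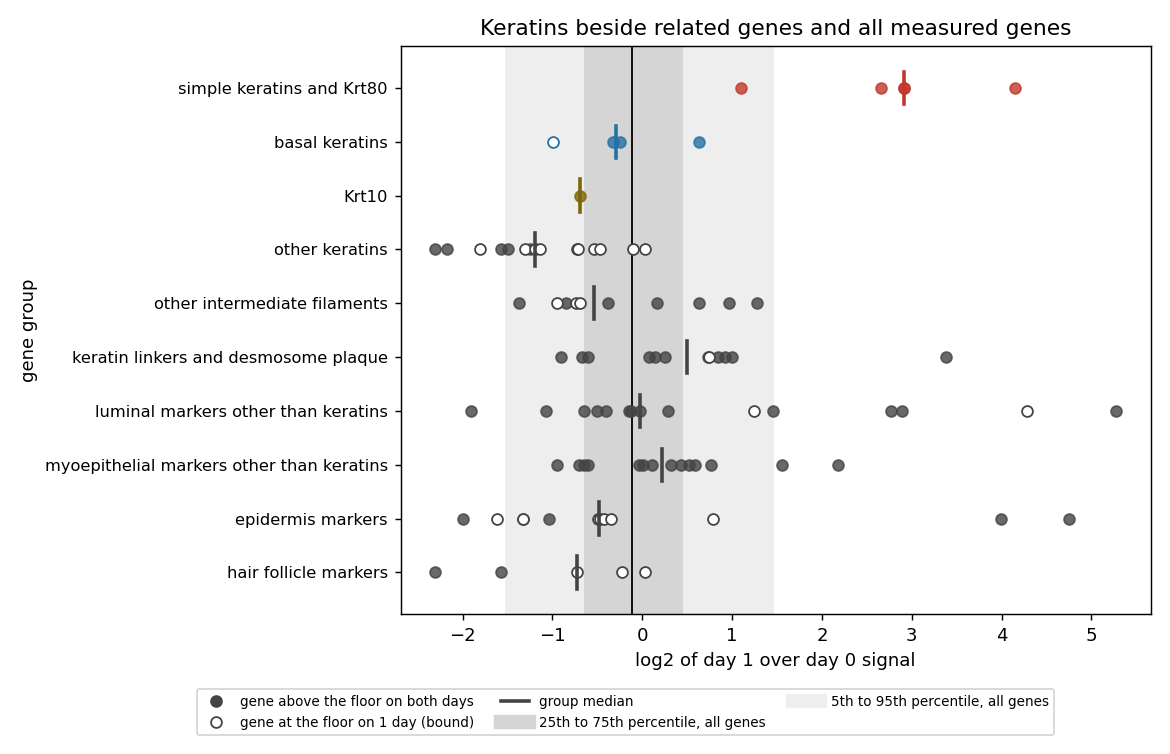
Log2 ratios of the measured genes of each group (filled circles, or open ones for bounds), the group medians (short lines) and the spread of all 13239 measured genes (grey bands for the 5th to 95th and 25th to 75th percentile, black line for the median of -0.12). The simple keratins other than Krt80 lie at 2.66 or more, beyond the 95th percentile of 1.45, and the basal keratins lie between -1.00 (the bound of Krt15) and 0.63, inside the wider band.

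The milk genes that define the labelled tissue were present. All 10 mammary secretory markers were far above the floor on both arrays, Csn2 at 80907.5 and 31909.0. As deposited all 10 were at least 2-fold lower on day 1, with a median of -1.28, and all 10 were with housekeeping scaling. The count was 4 with ribosomal protein scaling, 2 after quantile normalization, 2 after loess and 1 after median centring. It was 0 with hybridisation control scaling (median -0.11). Many of these genes lie near the top of the signal range, where brightness may not follow the amount of RNA. Without probe sets above 50% of the highest signal, 4 were measured, and 4 were at least 2-fold lower as deposited (median -1.81). Dimmer probe sets of Csn1s2a ranged from -3.95 to a bound of -0.60, and those of Btn1a1 from -2.49 to -0.49. Of markers of other cells, macrophage genes had 4 of 9 measured at least 2-fold higher and 1 lower, with a median of 0.63. Their summed signals were 10600.9 and 37709.6, and most of the rise was that of Cd14 alone (3816.8 and 29010.6, 2.93 log2). Cd68 had a ratio of 1.55, and the lower gene was C1qa (-1.23). Fibroblast genes had 1 of 8 higher and 0 lower, adipocyte genes 0 of 6 in either direction, and endothelial genes 0 of 7 higher and 1 lower, beside 10.4% of all genes higher and 13.3% lower. With hybridisation control scaling 7 of 9 macrophage, 7 of 8 fibroblast, 4 of 6 adipocyte and 2 of 7 endothelial genes were higher and 0 lower. Of all 12929 genes measured in that scaling, 6292 were higher and 295 lower by at least 2-fold. The part of cell composition in the keratin ratios was not tested.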

How the data were processed

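RNA pooled from 5 mice per day was hybridised to 1 Affymetrix Mouse Genome 430 2.0 array for each day. The deposited values are linear intensities (MAS 5 signals, 1 per probe set) from the statistical algorithms of Microarray Suite 5.0, per the labels. MAS5 is also named in the submitters' processing notes. Their scaling target was not given in the sources used here, and detection calls were not used.

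Of 45101 probe sets, 64 controls, 932 with several gene symbols and 9160 without a symbol here were left out of gene results. The other 34945 have 1 symbol, and 34741 were updated by gene identifier to RefSeq symbols of GRCm38.p6. Python 3.11.15, pandas 2.3.3 and statsmodels 0.14.6 were used. With 1 array per day there is no test, p-value or SD between days, and the number of arrays limits the precision. The ratio calculation was tested on simulated data.

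The members and gene lists were chosen with earlier results of these data known, so counts of members are descriptions. Named genes were all members, up to 6 other keratins per direction that were at least 2-fold different, and the 3 largest ratios of related lists, with exceptions stated. Alternatives were 6 scalings, other floors, a pseudocount of 16, other probe set rules, thresholds of 1.5-fold and 3-fold, and moving Krt10 or leaving out Krt80. In scalings the probe set of each gene was held. The loess span was 0.3.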

Additional observations from a re-analysis of the deposited data

How the results depend on the processing

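All 5 simple keratins and Krt80 were at least 2-fold higher in each of the 6 scalings, and the 4 simple keratins in every alternative run. Their median moved to 3.56 after median centring and 4.08 after hybridisation control scaling, beyond the spread of 0.56 between probe sets of 1 gene. These scalings took the basal median to 0.36 and 0.87 and gave 1 basal keratin at least 2-fold higher, as did a threshold of 1.5-fold (1). That gene is Krt17. The difference between the groups stayed from 2.84 to 3.29.

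The scalings shifted the median ratio of all genes by 0.10 (quantile) to 1.09 (hybridisation controls). As deposited 1374 genes were at least 2-fold higher and 1764 lower. The counts were 3631 and 685 after median centring, 2281 and 1149 after ribosomal protein scaling, and 6292 and 295 after hybridisation control scaling. They were 852 and 606 with the floor at the 75th percentile, 2699 and 3601 at 1.5-fold, and 510 and 573 at 3-fold. Lower genes were 4306 with the floor at the 25th percentile and 3051 with no floor. The higher share of all genes past 2-fold was 43.8% as deposited, 54.8% after housekeeping scaling, 66.5% after ribosomal protein scaling, 84.1% after median centring and 95.5% after hybridisation control scaling. The cause was not tested. No paired analysis was possible because each group has 1 array. Krt7, Krt80, Krt15, Krt17 and Krt10 had a signal near the floor on at least 1 day, which limits their ratios.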

Other observations

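Intermediate filament genes that are not keratins showed no common direction. Of 10 measured, 1 was at least 2-fold higher and 1 lower, beside 10.4% and 13.3% of all genes. The median log2 ratio was -0.53, with 3 genes measured through day 0 alone, which fixes their sign. It was above 0 after median centring (0.03), hybridisation control scaling (0.55) and with the floor at the 75th percentile (0.21). Vim, which encodes vimentin, the filament protein of mesenchymal cells, had signals of 1623.6 and 3928.8 (1.27 log2), and its other probe sets gave 1.34 and 1.42. Lmna, which encodes lamins of the nuclear envelope, had 967.2 and 1889.2 (0.97), with other probe sets from a bound of -1.91 to 0.97. Nes, which encodes nestin, had 280.3 and 108.5 (-1.37), with its other probe sets below the floor on both days. The ratio of Vim was below those of the 4 simple keratins.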
